A study of Homo sapiens with 6 samples.

Results

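The BCL2 family comprises the proteins that decide whether the outer mitochondrial membrane stays closed or is opened in apoptosis. The 10 members described here were taken by gene symbol from the 56638 rows of a count table: the anti-apoptotic BCL2, BCL2L1, MCL1 and BCL2A1, the effectors BAX and BAK1, and the BH3-only proteins BCL2L11, BBC3, PMAIP1 and BID. All 10 rows were found and all 10 passed the filter on low counts. Poly(A) RNA came from MOLM-13, a monocytic cell line grown from a patient's acute myeloid leukaemia and bearing the fusion oncogene KMT2A-MLLT3. Cells received 2 µM UC-764864 for 24 h (3 libraries, UDI0051, UDI0052 and UDI0053) or DMSO, the solvent, for the same time (3 libraries, UDI0054, UDI0055 and UDI0056). The series title calls UC-764864 a UBE2N inhibitor, UBE2N being the enzyme that makes the ubiquitin chains used in innate immune and DNA damage signalling, and the series design text writes the compound as UC-744864. Both groups are 1 cell line at 1 time, with 1 dose in the treated group.

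Anti-apoptotic members hold effectors and BH3-only proteins in a groove on their surface. BH3-only proteins are made or activated under stress and fill that groove or activate the effectors, which then assemble into pores and release cytochrome c. Myeloid leukaemia cells are known for reliance on BCL2 and MCL1, and the MCL1 protein is short-lived.

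Libraries of the UC-764864 group held 17073654 to 25014437 counts and those of the DMSO group 16136156 to 24511499. DMSO library UDI0055 stands at 0 over 3799 rows, which include X-linked and mitochondrial genes and the end of chromosome 22, among others. None of the 10 members is on these rows, and only the 52839 rows present in all libraries were compared. UDI0052 of the UC-764864 group and UDI0056 of the DMSO group had the smallest shares of counts in genes over 60% GC, 8.60% and 8.79%, against 11.0% and 11.2% in the other UC-764864 libraries and 10.4% and 12.1% in the other DMSO libraries. These 2 libraries also held the fewest counts, 17073654 and 16136156. The second principal component, with 20.4% of the variance, set the same 2 at its negative end (−27.6 for UDI0052 and −13.1 for UDI0056). At its positive end UDI0055 lay farthest out, at 19.6. UDI0055 was the DMSO library nearest to the UC-764864 mean for 8 of the 10 members. The UBE2N transcript itself averaged 159 ± 10.9 CPM in UC-764864 libraries, against 189 ± 17.0 CPM in DMSO libraries (SD, n = 3 each), and did not pass (edgeR adjusted p = 0.156). Of 12 myeloid markers, 11 passed the filter, of which LYZ was called higher and ITGAM, HOXA9 and CSF1R lower. Among all genes tested, 5.11% were called higher and 8.13% lower. The marker that did not pass the filter was CD14, a monocyte receptor, at 4 to 10 counts after UC-764864 and 3 to 11 after DMSO. Markers of other cells, 11 of 12 on rows held by all libraries, summed to 17.1 to 18.2 CPM after UC-764864 and 14.8 to 19.1 CPM after DMSO, with MS4A1, a B cell gene, at 0 in every library. KRT18 made up most of this sum, at 15.3 to 16.7 CPM after UC-764864 and 11.5 to 16.4 CPM after DMSO. KRT18 was not called (edgeR adjusted p = 0.443). Of these markers, CD3D, a T cell gene, was called lower (−1.07, edgeR adjusted p = 0.0358). CD3D was at no more than 1.19 CPM in any library, and its part in the results was not tested.

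Of the 10 members, 3 fell and 0 rose after UC-764864 (edgeR quasi-likelihood test, Benjamini-Hochberg adjusted p under 0.05 over 13490 genes). Those that fell were the anti-apoptotic genes BCL2A1 and MCL1 and the BH3-only gene BBC3. Among all genes tested, 8.13% were lower and 5.11% higher, 13.2% in either direction. At an unadjusted p under 0.05, 4 members were lower and 3 higher, against 16.6% and 14.9% of all genes tested. DESeq2 called 4 members lower and 0 higher, against 9.52% and 6.56% of the 13703 genes it tested. The anti-apoptotic class had 2 of 4 lower with a median log2 fold change (UC-764864 over DMSO throughout) of −0.20. Neither of the 2 effectors was called, with a median of 0.32, and the BH3-only class had 1 of 4 lower with a median of −0.24. The median was 0.05 over the 10 members and 0.01 over all genes tested. Falls thus stood both in the class that restrains apoptosis and in a class that promotes it. With the rows at 0 in UDI0055 kept as counts, 0 members were called, with adjusted p from 0.072 to 0.112 for the 3 above. With whole cultures as samples, fewer cells that express a gene and less RNA per cell cannot be told apart.

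**Figure D1:**
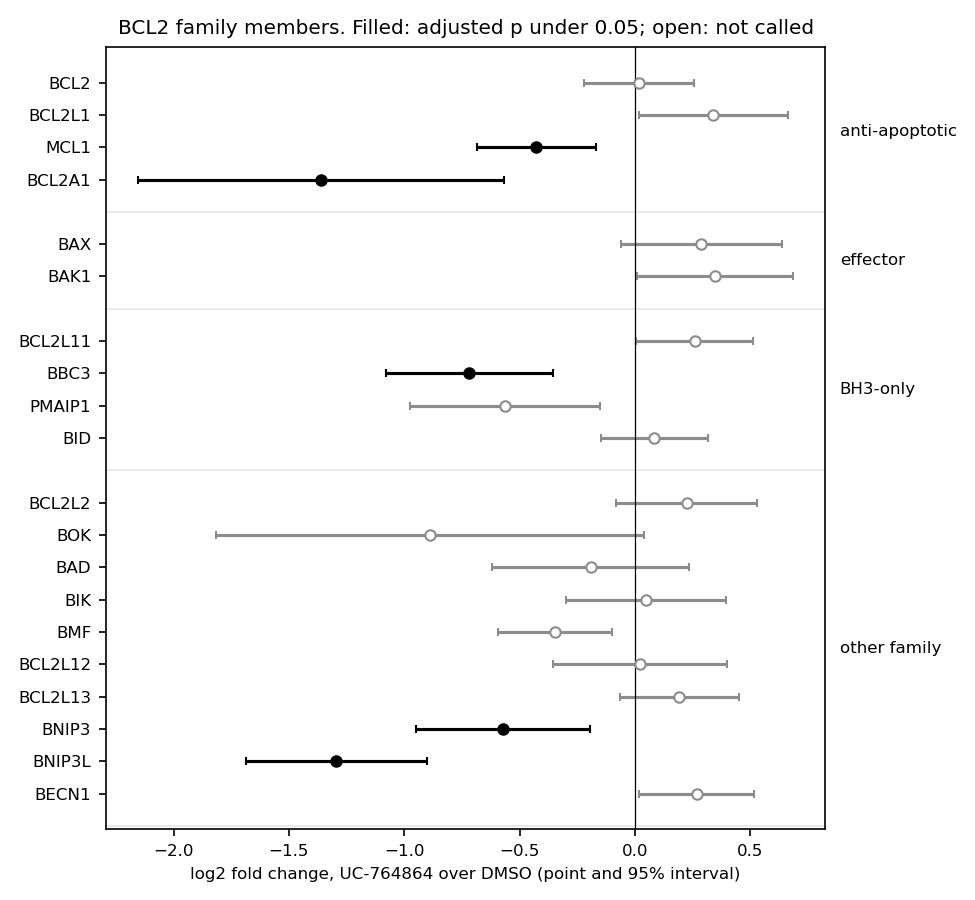
Log2 fold change of UC-764864 over DMSO (horizontal axis) with its 95% interval for the 10 members by class and for 10 further family genes. BCL2A1, MCL1 and BBC3 are filled and lie below 0, as do BNIP3 and BNIP3L. Among the 10 members, the intervals of BCL2, BAX and BID span 0. Among the further genes, those of BCL2L2, BOK, BAD, BIK, BCL2L12 and BCL2L13 span 0.

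The promoters of BCL2A1 and BBC3 are shown because these genes had the largest falls among the 10 members. RefSeq windows of 300 bases, 250 before and 50 after the annotated start, were found for 9 of the 10 members, in 14 windows of build GRCh38.p14; MCL1 is named only. The BCL2A1 window is chr15:79971147-79971446 on the minus strand and the BBC3 window chr19:47232618-47232917 on the minus strand, each printed along its gene. Capitals mark the interferon-response core, which is GAAA, any 2 bases and GAAA, and the E-box CACGTG, searched on both strands.
BCL2A1: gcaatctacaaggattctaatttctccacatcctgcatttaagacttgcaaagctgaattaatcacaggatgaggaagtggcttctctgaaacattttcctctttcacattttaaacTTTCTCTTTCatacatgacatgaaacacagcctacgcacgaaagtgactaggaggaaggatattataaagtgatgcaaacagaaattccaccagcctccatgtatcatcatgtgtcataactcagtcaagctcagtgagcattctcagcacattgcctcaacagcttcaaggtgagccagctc
BBC3: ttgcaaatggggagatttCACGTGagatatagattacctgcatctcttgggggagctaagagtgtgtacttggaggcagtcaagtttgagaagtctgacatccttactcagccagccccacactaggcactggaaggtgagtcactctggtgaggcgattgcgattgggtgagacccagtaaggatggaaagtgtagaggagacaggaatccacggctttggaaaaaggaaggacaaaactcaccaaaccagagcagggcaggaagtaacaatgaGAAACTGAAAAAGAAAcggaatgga
The BCL2A1 window holds the interferon-response core once, on the reverse strand at bases 118 to 127. In BBC3 it occurs at bases 276 to 285 and, overlapping, at bases 282 to 291, and the E-box stands at bases 19 to 24. No other member's window holds this core, which 3.57% of 35116 RefSeq promoter windows carry. The E-box is in 7.26% of those windows and also in those of BAX, 4 times, and BID. The NF-kB form, GGGA, any 4 bases and CC, in 25.6% of windows, was found in PMAIP1, BCL2 and BID and not in the BCL2A1 window. Also searched, and not marked, were the p53 decamer, TGACGTCA, the GC box GGGCGG and TATAAA. The p53 decamer, in 6.63% of windows, was found in BAK1 and not in the BBC3 window. TATAAA, in 11.5% of windows, was found in BCL2A1 and BCL2L1. These motifs were chosen with the expression results known, and a match is a run of letters, not a measured binding site.

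BCL2A1 encodes A1, an anti-apoptotic protein of blood cells whose gene is a known NF-kB target. Its counts were 37, 51 and 58 after UC-764864, against 171, 81 and 148 after DMSO. These are 1.67, 3.30 and 3.05 CPM (counts scaled to library size) in UC-764864 libraries, against 7.56, 3.31 and 9.75 CPM in DMSO libraries. The groups did not overlap, but UDI0055 of the DMSO group stood at nearly the same level as UDI0052 of the UC-764864 group. BCL2A1 fell 2.57-fold, a log2 fold change of −1.36 ± 0.36 (SE; edgeR adjusted p = 0.0321), with a 95% interval of −2.15 to −0.57. Its call was lost without UDI0051 (adjusted p = 0.109), without UDI0053 (0.0698) or without UDI0054 (0.11).

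MCL1, the short-lived guardian that binds BAK1, was at 274, 289 and 278 CPM after UC-764864, against 386, 326 and 418 CPM after DMSO. All UC-764864 libraries were below all DMSO libraries, and the treated libraries lay within a narrower range than the controls. MCL1 fell 1.34-fold (−0.43 ± 0.12, edgeR adjusted p = 0.0358; 95% interval −0.68 to −0.17). The call passed in 1 of the 6 fits that leave out a library, that without UDI0055 (adjusted p = 0.00715), and the other 5 gave adjusted p from 0.0563 to 0.167.

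BCL2, the founding member and the target of venetoclax, was at 143, 159 and 148 CPM after UC-764864, against 137, 155 and 151 CPM after DMSO. The groups overlapped, and the log2 fold change was 0.02 with a 95% interval of −0.22 to 0.26 (edgeR adjusted p = 0.924). BCL2L1, whose long form is BCL-XL, was at 22.2, 20.6 and 22.8 CPM after UC-764864, against 16.8, 20.5 and 14.4 CPM after DMSO. UDI0055 again lay next to the UC-764864 libraries without overlap, and BCL2L1 did not pass (0.34 ± 0.15, edgeR adjusted p = 0.143; interval 0.02 to 0.66). Gene counts do not separate the long anti-apoptotic form of BCL2L1 from its short pro-apoptotic form, nor the long and short forms of MCL1.

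BAX and BAK1 encode the pore-forming effectors. BAX was at 147, 114 and 135 CPM after UC-764864, against 112, 128 and 83.8 CPM after DMSO, and BAK1 at 93.6, 81.2 and 90.5 CPM against 73.6, 81.8 and 52.8 CPM. For both genes the groups overlapped, and the lowest library of each group was UDI0052 or UDI0056. Neither passed: the log2 fold change was 0.29 ± 0.16 for BAX (edgeR adjusted p = 0.236; interval −0.06 to 0.64) and 0.35 ± 0.15 for BAK1 (adjusted p = 0.15; interval 0.01 to 0.68). Both transcripts are rich in GC, 58.9% and 58.8%. With each library's trend on GC content removed, BAX was at 134, 126 and 123 CPM after UC-764864 and 113, 118 and 97.0 CPM after DMSO, and BAK1 at 85.4, 89.6 and 82.5 CPM and 74.0, 75.2 and 61.2 CPM. The groups then did not overlap and both were called higher, BAX at 0.22 (adjusted p = 0.0461) and BAK1 at 0.28 (adjusted p = 0.0199), in a fit that called 16.6% of 11647 genes higher and 15.2% lower. BAK1 also passed without UDI0055 (0.48, adjusted p = 0.041), as did BCL2L1 (0.48, adjusted p = 0.0299). Part of the BAK1 reads could belong to its pseudogene copy BAK1P1, which held 24 to 82 counts per library.

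BBC3 encodes PUMA, a BH3-only protein that binds every anti-apoptotic member. It was at 24.2, 16.8 and 27.7 CPM after UC-764864, against 38.8, 38.0 and 36.4 CPM after DMSO. The DMSO libraries lay close together and well above all UC-764864 libraries, of which UDI0052, low in GC-rich genes, was the lowest. The BBC3 transcript has the highest GC content of the family, 69.7%, and with the GC trend removed the UC-764864 libraries stood at 22.7, 23.3 and 24.5 CPM, against 36.8, 29.9 and 42.0 CPM in DMSO libraries. BBC3 fell 1.64-fold (−0.72 ± 0.17, edgeR adjusted p = 0.019; interval −1.08 to −0.36). Its call was lost without UDI0051 (adjusted p = 0.0584) or UDI0054 (adjusted p = 0.0733).

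PMAIP1 encodes NOXA, a BH3-only protein that binds MCL1 and A1 and promotes MCL1 turnover. It was at 44.1, 51.8 and 44.4 CPM after UC-764864, against 66.2, 49.9 and 91.7 CPM after DMSO. The groups overlapped through UDI0055, and PMAIP1 did not pass (−0.56 ± 0.19, edgeR adjusted p = 0.0678; interval −0.98 to −0.15). It passed with DESeq2 (−0.58, adjusted p = 0.0301), with no filter on low counts (adjusted p = 0.00145) and without UDI0055 (−0.75, adjusted p = 0.00812). Its transcript has the lowest GC content of the family, 37.2%, and with the GC trend removed the log2 fold change was −0.21 (adjusted p = 0.114). BCL2L11 encodes BIM, a broad binder of anti-apoptotic members that FOXO3 is known to induce. BIM transcript was at 30.3, 29.8 and 28.6 CPM after UC-764864, against 23.8, 25.9 and 24.4 CPM after DMSO, groups that did not overlap, with a log2 fold change of 0.26 ± 0.12 that was not called (edgeR adjusted p = 0.15; interval 0.01 to 0.51). BID, which caspase-8 cleaves to its active form, was at 121, 116 and 125 CPM after UC-764864 and 109, 118 and 114 CPM after DMSO. Its groups overlapped, with a log2 fold change of 0.08 (edgeR adjusted p = 0.62; interval −0.15 to 0.31).

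**Figure D2:**
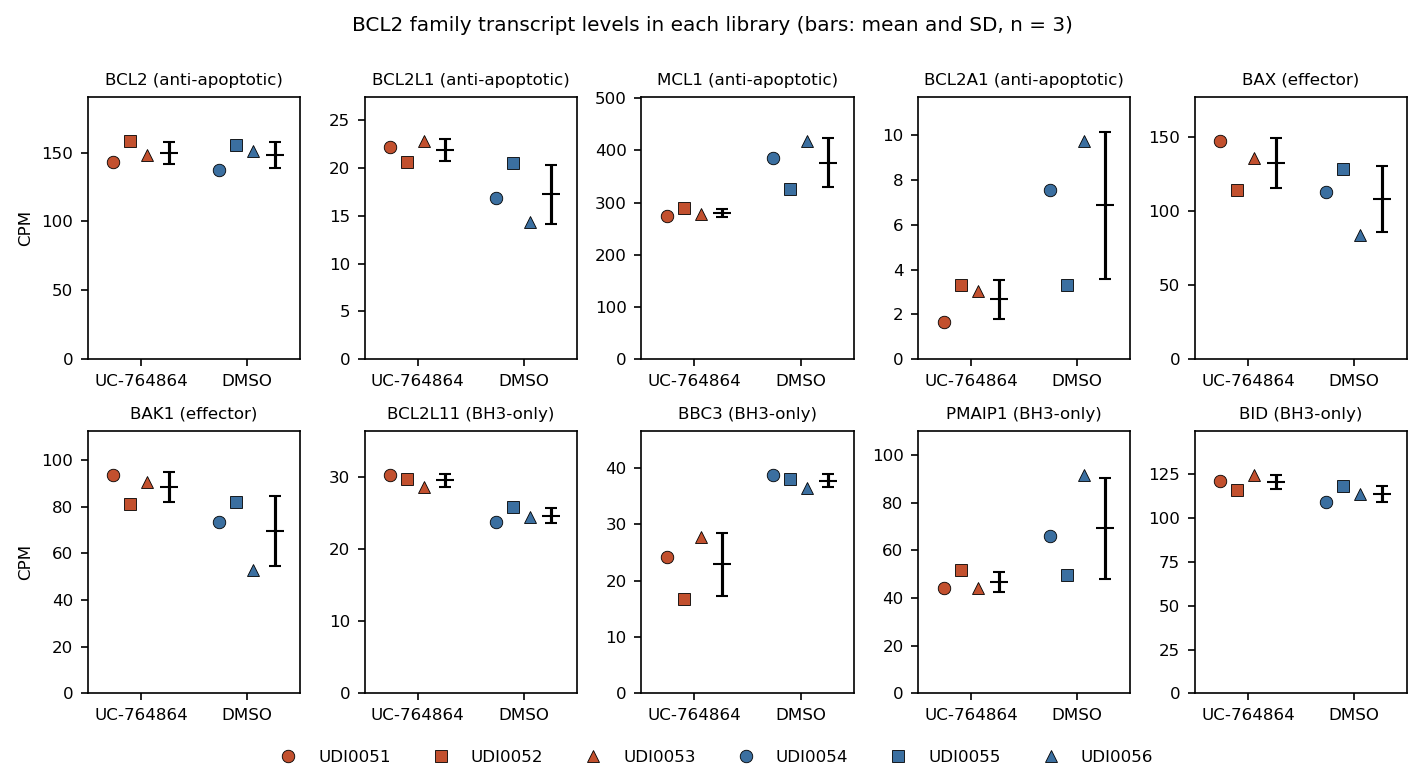
CPM of each member (vertical axes, starting at 0) in the 3 UC-764864 and the 3 DMSO libraries, with the mean and SD at the right of each group. All UC-764864 points of MCL1 and BBC3 lie below the DMSO points, and the BCL2A1 point of DMSO library UDI0055, at 3.31 CPM, lies beside the UC-764864 points.

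Over the 10 members, the libraries of the groups did not overlap in CPM for 5 (BCL2L1, MCL1, BCL2A1, BCL2L11 and BBC3), as for 36.1% of all genes tested. With so few members, this count and the count of calls describe these genes and do not set the family apart from other genes.

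**Figure D3:**
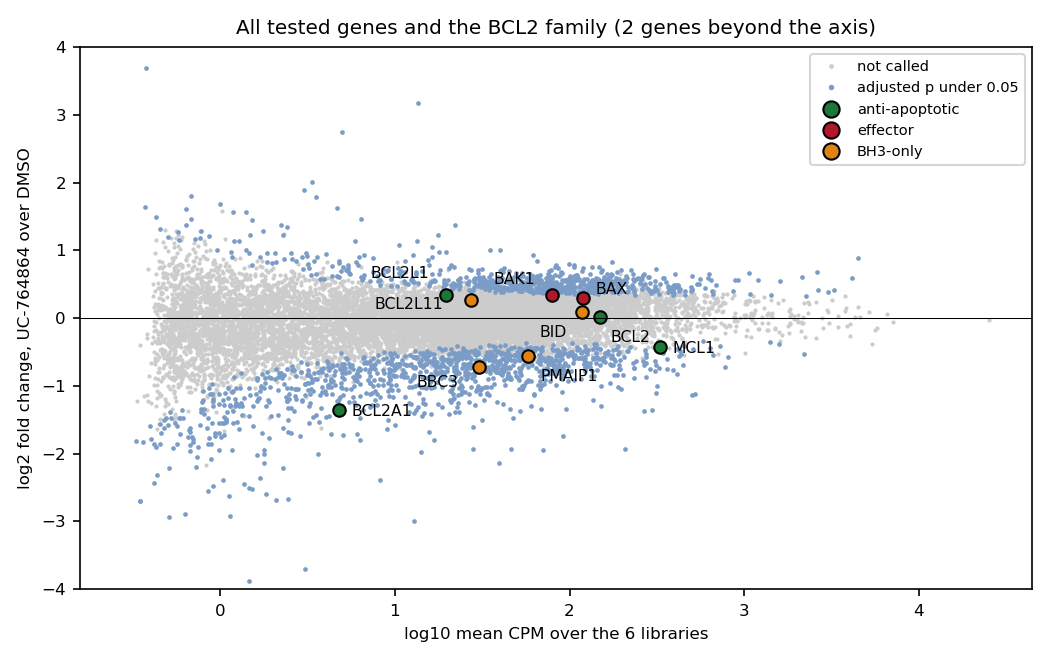
Log2 fold change of UC-764864 over DMSO against log10 mean CPM for the 13490 tested genes, with the members coloured by class; 2 genes lie beyond the axis limit of 4. The members spread through the cloud, BCL2A1 at −1.36 as the lowest point among them and BAK1 at 0.35 as the highest.

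Levels were compared between members per kilobase of the union of exons in GENCODE 29. MCL1 was highest, at 64.1 ± 1.76 CPM per kb after UC-764864 and 86.2 ± 10.8 CPM per kb after DMSO (SD, n = 3 each). BAX followed at 51.1 ± 6.57 CPM per kb after UC-764864 and 41.8 ± 8.69 after DMSO. After UC-764864 the order went on with BAK1, BID, PMAIP1, BCL2, BBC3, BCL2L1, BCL2L11 and BCL2A1, and of these neighbours BBC3 and BCL2L1 overlapped. BCL2A1 was last there at 2.45 ± 0.81 CPM per kb, and in DMSO libraries, at 6.31 ± 3.01, it stood eighth, overlapping BCL2L1 below it. In DMSO libraries BAX, BAK1, PMAIP1 and BID overlapped their neighbours in that order, as did BCL2 and BBC3. With the length of the longest transcript in place of the exon union, BAX ranked above MCL1 after UC-764864 (97.3 and 71.3 CPM per kb), so the order depends on the length used. Shares within the summed CPM per kb of the 4 anti-apoptotic members were taken by exon union only, and also depend on the length used. After UC-764864, BCL2 was at 12.7 CPM per kb by exon union and 20.1 by longest transcript. By exon union, MCL1 made up 75.5%, 74.4% and 74.1% after UC-764864 and 78.9%, 76.9% and 78.6% after DMSO. BCL2 made up 14.6%, 15.2% and 14.7% after UC-764864 and 10.4%, 13.6% and 10.5% after DMSO, and BCL2A1 1.84%, 3.41% and 3.26% against 6.19%, 3.14% and 7.35%.

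Ratios of counts between members that bind each other, or that share a class, do not depend on how libraries were scaled, but can move with the GC content of the 2 transcripts. They are given without a test, since the pairs were chosen with the results known. For every BCL2 count there were 1.92, 1.82 and 1.88 MCL1 counts after UC-764864, against 2.81, 2.10 and 2.77 after DMSO, and the groups did not overlap. MCL1 over its partner BAK1 was 2.93, 3.56 and 3.07 after UC-764864, against 5.25, 3.98 and 7.92 after DMSO, also without overlap. MCL1 over PMAIP1, the guardian over the BH3-only protein that binds it, was 6.21, 5.58 and 6.27 after UC-764864 and 5.84, 6.53 and 4.57 after DMSO. Here the groups overlapped. MCL1 over BBC3 likewise overlapped, at 11.3, 17.2 and 10.0 after UC-764864 and 9.97, 8.58 and 11.5 after DMSO. BCL2 over BCL2L11 was 4.71, 5.32 and 5.18 after UC-764864 and 5.78, 6.01 and 6.18 after DMSO, without overlap, whereas BCL2 over BAX (means of 1.15 ± 0.218 and 1.41 ± 0.339 for UC-764864 and DMSO) and BCL2L1 over BAX (0.167 ± 0.0153 and 0.16 ± 0.0109) overlapped. BCL2A1 over PMAIP1 averaged 0.0568 ± 0.0166 after UC-764864 and 0.0957 ± 0.0256 after DMSO (SD, n = 3 each) and overlapped as well. With the GC trend removed, 7 of the 8 ratios did not overlap between the groups, against 3 in the counts. The pairs share members, so the ratios are not separate observations, and no share over other gene pairs is at hand. Among single genes tested, 36.1% did not overlap before the GC trend was removed. The fit with the trend removed called 16.6% of 11647 genes higher and 15.2% lower. MCL1 over PMAIP1 turned its direction and was then 5.08, 5.23 and 5.44 after UC-764864, against 6.34, 6.62 and 6.13 after DMSO. MCL1 over BBC3 was 12.0, 11.6 and 11.4 after UC-764864, against 10.9, 11.3 and 9.75 after DMSO, higher in all UC-764864 libraries. BCL2 over BAX (means of 1.14 ± 0.0805 after UC-764864 and 1.39 ± 0.145 after DMSO) and BCL2A1 over PMAIP1 (0.056 ± 0.0165 and 0.103 ± 0.0292) were lower in all UC-764864 libraries. BCL2L1 over BAX still overlapped. Whether the groups overlap in 4 of these ratios thus depends on the GC trend.

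**Figure D4:**
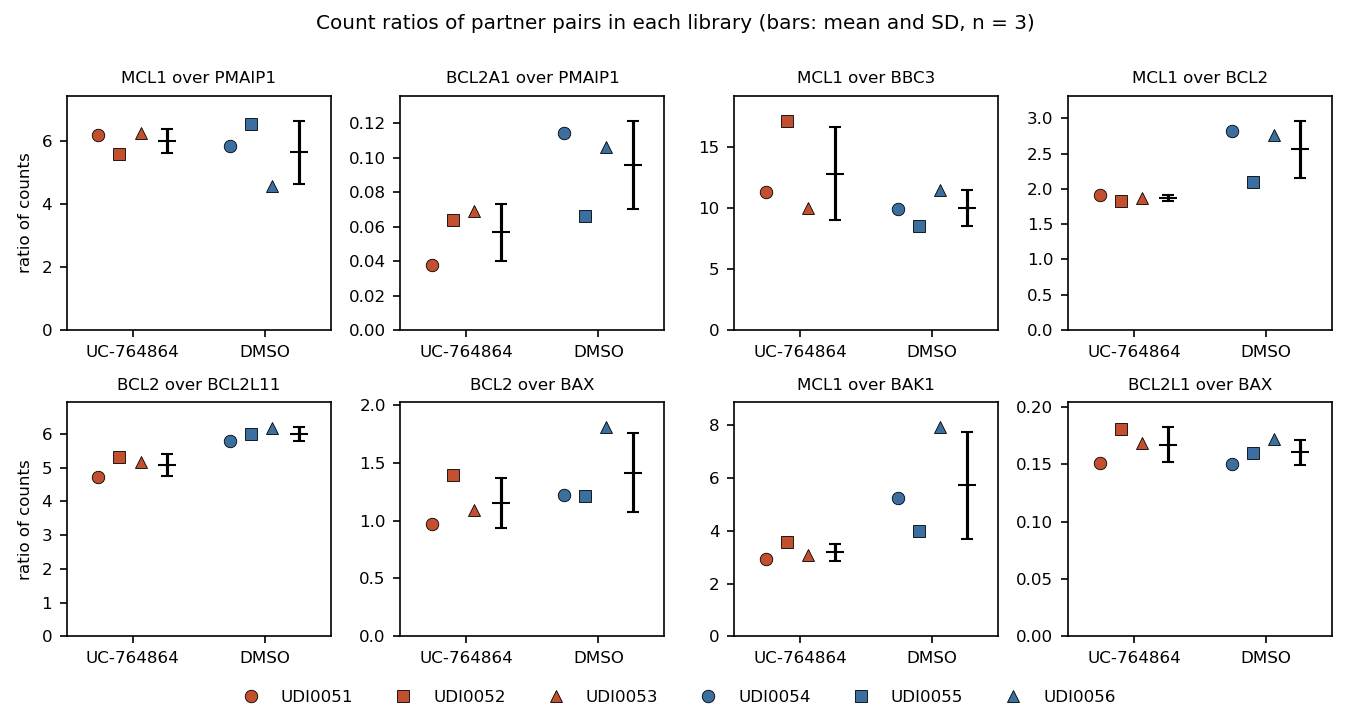
Ratios of counts for 8 pairs of members in each library (vertical axes, starting at 0), UC-764864 at the left and DMSO at the right of each panel, with the mean and SD. MCL1 over BCL2, MCL1 over BAK1 and BCL2 over BCL2L11 were lower in all UC-764864 libraries than in all DMSO libraries.

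For each member that fell, the genes with the most similar course over the 6 libraries were sought by the root mean square distance between log2 CPM values centred on each gene's mean, among genes of at least 5 CPM on average. The closest to MCL1 were SS18L2, TMEM170A and GAS5, at distances of 0.04 each on the log2 scale. PARP10, ATP10A and SH3TC1 were closest to BBC3, at 0.05, 0.07 and 0.07. FCGR2B, ZNF493 and IDI1 were closest to BCL2A1, at 0.24, 0.25 and 0.27, farther than the neighbours of MCL1 and BBC3 were from theirs.

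Beyond the 10 members, a list of 14 further family genes had 10 that were tested, of which 2 fell and 0 rose. Over all genes tested, 8.13% were lower and 5.11% higher. At an unadjusted p under 0.05, 1 gene of the list was higher and 3 were lower, against 14.9% and 16.6% of all genes tested. DESeq2 called 0 higher and 3 lower, against 6.56% and 9.52% of the genes it tested. The list had a median log2 fold change of −0.09. BNIP3L, a hypoxia-induced mitophagy receptor with a BH3-like stretch, averaged 87.6 ± 16.5 CPM in UC-764864 libraries, against 215 ± 49.4 CPM in DMSO libraries (−1.29 ± 0.18, edgeR adjusted p = 0.00328). Its call passed in all 6 fits that leave out a library. Its relative BNIP3 fell by 0.57 ± 0.17 (adjusted p = 0.0491), a call that passed in 1 of those 6 fits, the one without UDI0055 (adjusted p = 0.013), and was lost without UDI0052 and UDI0056 together (0.0707). Not called were BMF, a BH3-only protein that responds to loss of anchorage, at 55.9 ± 3.55 CPM in UC-764864 libraries and 71.1 ± 4.16 CPM in DMSO libraries (adjusted p = 0.0632), BECN1, the autophagy protein with a BH3 domain, at 73.4 ± 5.92 and 61.0 ± 2.94 CPM (adjusted p = 0.137), and BOK, an effector relative, at 0.404 ± 0.124 and 0.795 ± 0.356 CPM (adjusted p = 0.175). BCL2L10, HRK, BCL2L14 and BCL2L15 did not pass the filter, at no more than 6 counts in any library.

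Genes that bind family proteins or act on their turnover numbered 24, of which 20 were tested, 2 rose and 2 fell (median 0.10). The shares over all genes tested were 5.11% higher and 8.13% lower. At an unadjusted p under 0.05, 5 genes of the list were higher and 5 lower, against 14.9% and 16.6% of all genes tested. DESeq2 called 3 of them higher and 4 lower, against 6.56% and 9.52% of the genes it tested. MTCH2, the mitochondrial receptor for cleaved BID, rose to 126 ± 9.60 CPM after UC-764864, against 86.4 ± 11.0 CPM after DMSO (0.54 ± 0.13, edgeR adjusted p = 0.0195). DYNLL1, a dynein light chain that binds BIM, rose to 201 ± 12.8 CPM, against 143 ± 4.05 CPM after DMSO (0.49 ± 0.11, adjusted p = 0.0165). IER3, an immediate early gene that modulates cell survival, fell by 0.91 ± 0.15 (adjusted p = 0.00545), and MARCH5, a mitochondrial ubiquitin ligase that acts on MCL1, fell by 0.48 ± 0.13 (adjusted p = 0.034). The IER3 call passed in all 6 fits that leave out a library, the MTCH2 and DYNLL1 calls in 3 each and the MARCH5 call in 1, and the MARCH5 call was also lost with the GC trend removed (adjusted p = 0.0685). VDAC1 at 0.37, USP13, a deubiquitinase of MCL1, at 0.42 and TPT1 at −0.38 were not called (adjusted p = 0.0532, 0.0648 and 0.0661). DYNLL1, VDAC1 and TPT1 have processed copies elsewhere in the genome that can share reads, so their values are uncertain.

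Of 24 transcription factors known to act on the family's genes, all were tested, 1 rose and 1 fell (median 0.05). Among all genes tested, 5.11% were higher and 8.13% lower. At an unadjusted p under 0.05, 6 factors were higher and 3 lower, against 14.9% and 16.6% of all genes tested. DESeq2 called 2 factors higher and 2 lower, against 6.56% and 9.52% of the genes it tested. MYC, which sensitizes cells to apoptosis, rose to 691 ± 58.5 CPM after UC-764864, against 509 ± 78.1 CPM after DMSO (0.44 ± 0.13, edgeR adjusted p = 0.0437). FOXO3 fell to 48.9 ± 1.66 CPM, against 63.2 ± 2.92 CPM after DMSO (−0.37 ± 0.11, adjusted p = 0.0463). Each of the 2 calls passed in 1 of the 6 fits that leave out a library, that without UDI0055, and the MYC call was lost with library size as the only scaling (adjusted p = 0.0543) and the FOXO3 call with no filter on low counts (adjusted p = 0.0626). With the rows at 0 in UDI0055 kept as counts, BNIP3L and IER3 alone of the called genes named from these 3 lists still passed. BCL6, a repressor, at 0.53, EGR1 at −0.35 and STAT3 at 0.33 were not called (adjusted p = 0.0529, 0.071 and 0.0714). None of the 5 NF-kB subunit genes, a family known to act on BCL2A1, was called: RELA was at 0.37 ± 0.16, NFKB1 at 0.36 ± 0.13, RELB at 0.07 ± 0.18, NFKB2 at −0.10 ± 0.15 and REL at −0.15 ± 0.16 (edgeR adjusted p from 0.0946 for NFKB1 to 0.825 for RELB).

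**Figure D5:**
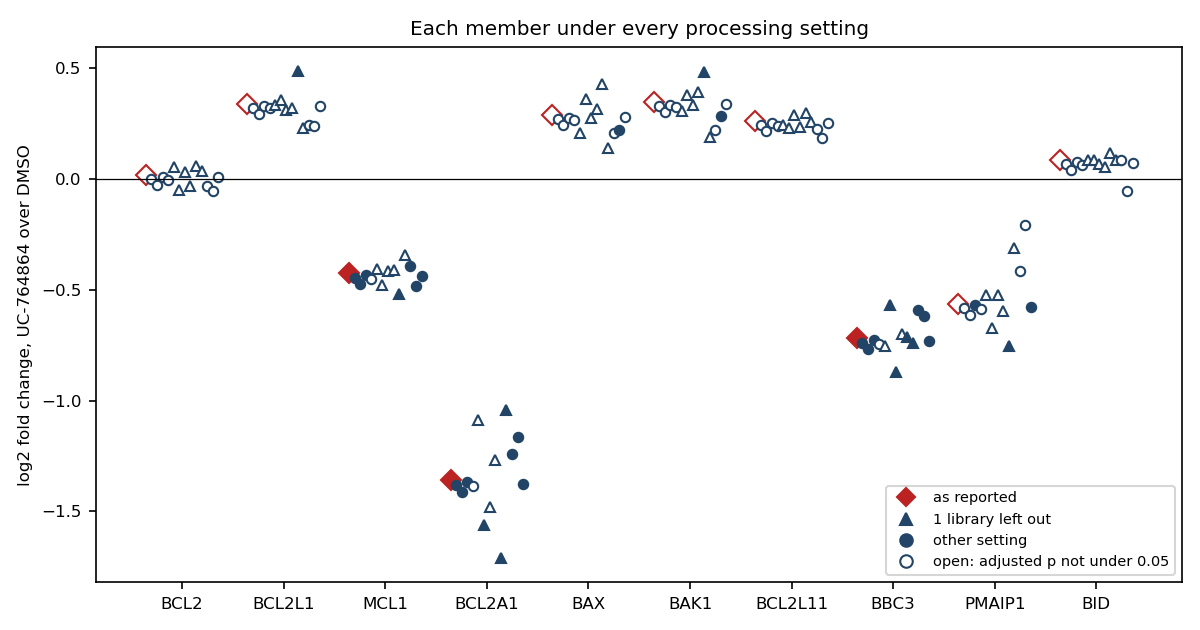
Log2 fold change of UC-764864 over DMSO for each member as reported (diamonds), with 1 library left out (triangles) and under the other settings (circles); filled symbols had an adjusted p under 0.05. BCL2A1, MCL1, BBC3 and PMAIP1 lie below 0 throughout, and BCL2L1, BAX, BAK1 and BCL2L11 above it.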

How the data were processed

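Raw read counts for each gene, as whole numbers, were deposited by the authors with a column for each library, and a deposited table gives the treatment of each column. Per the labels' protocols, poly(A) RNA was read as 75 bp paired ends. FastQC 0.11.7, HISAT2 2.0.5, featureCounts 1.5.2 and GRCh37 are named in the submitters' processing notes; the annotation release and strand setting are not stated there. If strand was ignored, sense and antisense reads cannot be told apart. No label says whether a group's libraries were separate cultures, and p-values may therefore reflect technical spread alone. Libraries of the same group differed by a chi-square of 4.74 to 45.0 per degree of freedom, above sampling noise. Between groups it was 19.5 to 86.7, so the ranges overlapped. UDI0055 differed less from UDI0053 of the UC-764864 group (19.5) than from UDI0054 (20.6) or UDI0056 (45.0) of its own DMSO group. Each library was kept.

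Rows at 0 in unbroken runs of 1 library were read as missing, and 52839 of 56638 rows were kept. With R 4.3.3 and edgeR 4.0.16, low rows were removed with filterByExpr, TMM factors (0.978 to 1.03) scaled the libraries, and treatment was the only term of the quasi-likelihood F test, Benjamini-Hochberg over 13490 genes, adjusted p under 0.05. The script recovered known changes when tested on simulated data without a GC trend, in which each changed gene changed more than MCL1 or BBC3 did here. The share recovered is not reported here, and recovery of changes as small as theirs was not tested. SE is the absolute log2 fold change over the root of F. A count of 3, taken as the floor, was 0.122 to 0.202 CPM, and covers counting error only, since reads carry no molecular identifiers. Gene length and GC content (longest transcript) came from GENCODE 29, and GC values were at hand for 86.3% of tested genes; the trend was a loess fit with a span of 0.5. The alternatives also included DESeq2 1.42.0. Named are all members, the called genes of 3 lists with the 3 of smallest p that were not called, the 3 genes closest to each called member, and the 5 NF-kB subunit genes, which were chosen after their values were seen, as were the ratios with the GC trend removed and the levels by longest transcript. Some genes of the lists are not reported here. Members, lists and the treatment of rows at 0 were chosen with earlier results of these data known.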

Additional observations from a re-analysis of the deposited data

How the results depend on the processing

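No paired analysis was possible because the table's columns carry no replicate numbers. With rows at 0 in UDI0055 kept as counts, 22 genes were called higher and 125 lower, against 690 and 1097, and 0 members lower, against 3: MCL1 was then at −0.45 (adjusted p = 0.0788), BCL2A1 at −1.39 (0.112) and BBC3 at −0.75 (0.072); the cause was not tested. With the GC trend removed, 1928 genes were called higher and 1775 lower, with 2 members higher, BAX at 0.22 and BAK1 at 0.28. With no filter on low counts 1676 genes were lower, and PMAIP1 passed at −0.57, as it did with DESeq2 at −0.58. Leaving out 1 library at a time, which leaves 2 in a group, gave 62 to 1525 genes higher and 278 to 1729 lower, with 0 to 2 members higher and 0 to 4 lower. The fewest rises and falls came without UDI0051 and the most without UDI0055. In these fits the log2 fold change ranged from −1.71 to −1.04 for BCL2A1, −0.52 to −0.34 for MCL1, −0.87 to −0.57 for BBC3, −0.75 to −0.31 for PMAIP1, 0.23 to 0.48 for BCL2L1, 0.19 to 0.48 for BAK1, and 0.14 to 0.43 for BAX. Without UDI0052 and UDI0056 together, BCL2A1, MCL1 and BBC3 kept their calls. BCL2 and BID, called under none of the settings run, changed sign between them. BCL2A1, with the lowest counts of the 10 members, had the widest interval.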

Other observations

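Genes of the turnover list that lie on rows missing from UDI0055 were read in the other 5 libraries, on the same CPM scale and without a test. HUWE1, a ubiquitin ligase known to act on MCL1, was at 462, 407 and 423 CPM in the UC-764864 libraries, against 301 and 291 CPM in DMSO libraries UDI0054 and UDI0056. USP9X, a deubiquitinase known to stabilize MCL1, was at 72.2, 73.0 and 74.3 CPM after UC-764864 and 68.1 and 80.1 CPM after DMSO. BCAP31, a caspase-8 substrate of the endoplasmic reticulum, was at 180, 157 and 179 CPM after UC-764864 and 136 and 116 CPM after DMSO. For HUWE1 and BCAP31 all UC-764864 libraries were above both DMSO libraries, and for USP9X the groups overlapped. Among the 13490 tested genes, 27.8% were likewise above both of these DMSO libraries in all UC-764864 libraries. The DMSO library not read here, UDI0055, was the one nearest to the UC-764864 mean for 8 of the 10 members.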
